A study of Mus musculus with 4 samples.

Results

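The genes followed in mouse liver were 10 of the actin and microtubule cytoskeleton and its regulation. They were Srf, Actb, Actg1, Vcl, Cfl1, Tuba1b, Tuba1c, Tuba4a, Tubb2a and Tubb5, out of 31829 gene names on the array. The genes were selected on earlier results of the same fasted against refed comparison, so their values are a description of it and carry no test. Every array probe listed under one of these names was taken, which gave 21 probes of 39429. Of these, 20 passed the brightness filter, and the one that did not was a second probe of Vcl. Total RNA came from single livers. All mice were C57BL/6J males of 8 to 12 weeks. The 4 fasted mice had no food for 24 h, and the 4 refed mice had the same 24 h fast and then 2 h of access to food. Mice that were never fasted do not enter the comparison. Each of 4 two-colour arrays held 1 fasted and 1 refed liver, with the fasted liver labelled in Cy5 on replicates 1 and 2 and in Cy3 on replicates 3 and 4. All ratios are given as log2 fasted over refed, so that a negative value means a lower level in the fasted liver.

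Actin monomers assemble into filaments that support the cell cortex and, in hepatocytes, the bile canaliculus, while dimers of alpha and beta tubulin assemble into the microtubules along which vesicles and secreted proteins travel. Serum response factor (SRF) is a transcription factor that binds a short AT-rich element, the CArG box, in the promoters of actin genes and of its own gene. Its cofactors of the myocardin-related family are held back by free actin monomers, and its ternary complex cofactors respond to growth factor signalling. Free tubulin dimers in turn promote the decay of tubulin transcripts. Transcripts of Actb and of several tubulins are common reference transcripts in expression studies.

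The promoters of 9 of the 10 genes, all but Actb, were read from RefSeq (build GRCm38.p6), as the 250 bases before the annotated start, to show where CArG boxes lie relative to genes that did and did not change. A CArG box was found in 3 of them, in capitals below, against 1.47% of all 32851 promoters searched the same way. The search pattern for the CArG box is symmetric and so covers both strands. Each promoter is printed 5′ to 3′ on the strand of its gene.
Srf, chr17:46556163-46556412, minus strand: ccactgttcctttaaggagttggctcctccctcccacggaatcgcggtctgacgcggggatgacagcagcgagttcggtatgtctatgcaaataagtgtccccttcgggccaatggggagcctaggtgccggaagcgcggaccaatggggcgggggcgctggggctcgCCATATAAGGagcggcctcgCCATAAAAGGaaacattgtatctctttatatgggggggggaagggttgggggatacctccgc
Actg1, chr11:120348496-120348745, minus strand: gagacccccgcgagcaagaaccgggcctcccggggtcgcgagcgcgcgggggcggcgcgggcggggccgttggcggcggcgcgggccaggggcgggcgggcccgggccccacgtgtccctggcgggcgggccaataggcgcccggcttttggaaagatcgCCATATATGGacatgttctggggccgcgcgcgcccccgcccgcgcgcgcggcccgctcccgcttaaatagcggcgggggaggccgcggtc
Vcl, chr14:20929148-20929397, plus strand: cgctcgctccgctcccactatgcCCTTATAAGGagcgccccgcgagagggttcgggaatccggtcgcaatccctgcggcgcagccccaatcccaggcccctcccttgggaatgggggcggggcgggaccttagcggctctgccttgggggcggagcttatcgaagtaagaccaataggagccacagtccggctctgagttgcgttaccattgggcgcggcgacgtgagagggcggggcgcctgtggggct
Srf held 2 boxes, which began 82 and 62 bases before the start. The box of Actg1 began 90 bases before it and that of Vcl 227 bases before it. The promoters of Cfl1 and of the 5 tubulin genes held no match in this window. The full cAMP response element TGACGTCA, which reads the same on both strands, was found in Tubb2a alone among the 9 and in 1.55% of all promoters. Its shorter core, TGACG or CGTCA, which the full element contains, was found in Srf, Tuba1c, Tuba4a and Tubb2a and in 17.8% of all promoters. A match is a stretch of letters and does not show binding.

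The arrays were of modest signal, with medians of 40 to 75 in Cy5 and 44 to 96 in Cy3, and 4 pairs of livers set the precision. Of 39429 probes, 19721 were kept, being well above background on every array in at least 1 condition and having a ratio on all 4 arrays. All 7 hepatocyte markers listed were among them, with list mean ratios of 0.39, 0.51, 0.07 and 0.05 on replicates 1 to 4. Tat was called higher at 0.84 ± 0.46 (limma adjusted p = 0.0451), against 1.82% of all genes called higher. At an unadjusted p under 0.05 there were 3 of the 7, all higher, and 1 of the 7 had a mean below 0. Of 9 hepatic stellate and smooth muscle markers, Myh11, Cnn1 and Des were not kept and 6 were, Acta2 and Tagln among them. Their summed intensity ran from 1540 to 2170 in fasted and from 1730 to 2070 in refed livers. All 6 endothelial markers were kept, and their sum was higher in fasted livers without overlap, from 5720 to 6290 against 4740 to 5320, while their mean ratios ran from -0.03 for Tek to 0.35 for Stab2. Of the 6, 0 were called by limma or SAM, and 1, Stab2, reached an unadjusted p under 0.05. Stab2 also had a limma adjusted p of 0.0478, but at 1.27-fold it missed the 1.5-fold limit. For the Kupffer and leukocyte markers the sums overlapped, from 7650 to 9700 in fasted and from 5280 to 8670 in refed livers. Of 8 proliferation markers, 2 were kept. Pancreatic acinar transcripts stood apart in 1 liver. Their list had a mean ratio of -3.93 on replicate 3 and between -0.06 and 0.04 on the other arrays. Erythroid transcripts had mean ratios of 1.82, -0.25, 2.11 and 0.26 on replicates 1 to 4. Their summed intensity ran from 27400 to 131000 in fasted and from 16000 to 36800 in refed livers. Of the 4 erythroid genes kept, 0 were called by limma and 2 by SAM, and 3 reached an unadjusted p under 0.05, all higher. In bulk tissue, fewer cells of a type and less RNA per cell cannot be told apart. The part of these other cells in the values that follow was not tested.

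Of the 20 probes kept, 12 were called lower in fasted livers and 0 higher, where a call needed a limma adjusted p below 0.10 together with 1.5-fold or more. At an unadjusted p under 0.05 there were likewise 0 higher, and rebuilt SAM, the method of the study, called 14 of the 20, all lower. Over all kept probes, limma called 2.07% lower, and the share that SAM called is not given here. Counted by gene with the brightest probe, 6 of 10 were called lower, namely Actb, Tuba1b, Tuba1c, Tuba4a, Tubb2a and Tubb5, against 2.13% of all 16085 genes. Actg1 was added when any of its probes counted, which made 7. Srf, Vcl and Cfl1 had no probe called. All 10 genes had a mean ratio below 0, with a median of -0.78 against 0.00 for all kept genes. Since this comparison chose the genes, nothing is read from these counts. When spots of high local background were retained 3 of the 10 genes were called, namely Tuba1b, Tuba4a and Tubb2a. Actb (-0.60), Tuba1c (-1.43) and Tubb5 (-0.69) lost their calls there with means still below 0. Under a 2-fold limit in place of 1.5-fold 2 were called.

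**Figure D1:**
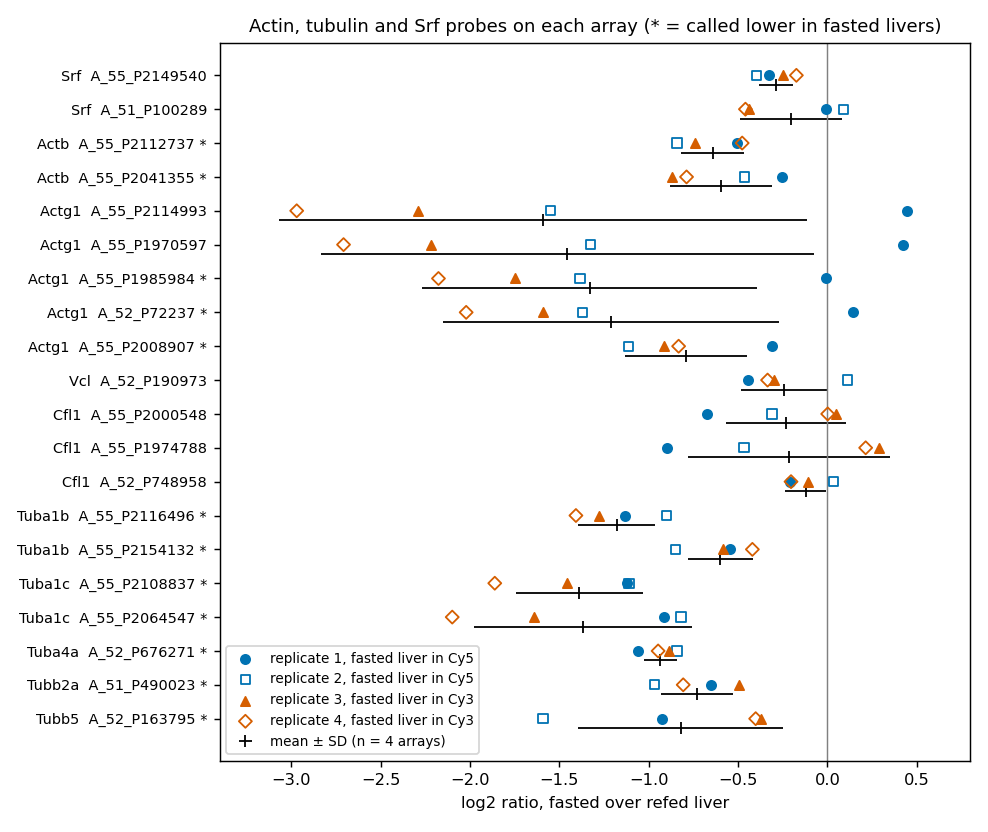
Log2 ratio of fasted over refed liver (x axis) on each of the 4 arrays for the 20 kept probes of the 10 genes (y axis), with blue for the fasted liver in Cy5, orange for the fasted liver in Cy3, and black bars for the mean ± SD. Asterisks mark the 12 called probes; 4 of the 5 Actg1 probes lie near or above 0 on replicate 1 and far below 0 on the other 3 arrays.

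Srf itself, the transcription factor, had 2 probes. The brighter one gave ratios of -0.01, 0.09, -0.44 and -0.46 on replicates 1 to 4, a mean of -0.20 ± 0.29 (SD, n = 4). The ratios were near 0 on both arrays with the fasted liver in Cy5 and below 0 on both with it in Cy3. The other probe gave -0.33, -0.39, -0.25 and -0.17, a mean of -0.29 ± 0.10. This one was below 0 on all 4 arrays, yet at 1.22-fold it missed the 1.5-fold limit. Its log2 intensity ran from 7.33 to 7.67 in fasted and from 7.66 to 7.92 in refed livers, so the groups overlapped by a narrow margin. The mm9 position listed for this probe is chr17:46685306-46685365, while the brighter probe has only 8 bases listed, chr17:46683788-46683795. The brighter probe's mean became 0.0092 when spots of high local background were retained, and was -0.13 without replicate 3 and -0.12 without replicate 4.

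Actb, which encodes cytoplasmic beta actin, was lower in every fasted liver than in its refed partner. Its probe at chr5:143665422-143665481 gave ratios of -0.51, -0.84, -0.74 and -0.48, a mean of -0.64 ± 0.18 (SD, n = 4) or 1.56-fold. The log2 intensity was 14.54, 14.64, 14.56 and 14.75 in the fasted livers and 15.05, 15.48, 15.3 and 15.23 in the refed ones. The groups did not overlap, and the highest fasted liver lay below the lowest refed liver. Without replicate 2 the mean was -0.58, which fell short of the fold limit.

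A second probe carries the name Actb but is listed on another chromosome, at chrX:148868300-148868359, from a cDNA clone record. It is shown because an actin copy elsewhere in the genome may share its bases with the gene on chromosome 5, which the files do not settle. It has 1 reading frame without a stop codon.
Actb-named probe on X: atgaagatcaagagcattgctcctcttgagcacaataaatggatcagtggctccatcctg
Its ratios were -0.25, -0.47, -0.87 and -0.79, a mean of -0.59 ± 0.29 and 1.51-fold. All 4 arrays were below 0, but its levels overlapped, from 7.97 to 8.63 in fasted and from 8.23 to 9.43 in refed livers. This was the called probe nearest to the fold limit, together with a probe of Tuba1b at -0.60.

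Actg1, which encodes cytoplasmic gamma actin, had the widest differences and the widest spread. Its brightest probe gave ratios of 0.43, -1.33, -2.22 and -2.71, a mean of -1.46 ± 1.38 (SD, n = 4). The probe A_55_P2114993, at chr11:120206997-120207056, gave 0.44, -1.55, -2.29 and -2.97, a mean of -1.59 ± 1.48. Replicate 1 lay above 0 on both. Neither was called by limma, at mean changes of 2.74-fold and 3.01-fold, while rebuilt SAM called both.

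The other 3 Actg1 probes were called by limma. A_55_P1985984 gave -0.01, -1.38, -1.75 and -2.18 (mean -1.33 ± 0.94), and A_52_P72237 gave 0.14, -1.37, -1.59 and -2.02 (mean -1.21 ± 0.94). A_55_P2008907 differed in pattern, with -0.31, -1.11, -0.91 and -0.83 (mean -0.79 ± 0.34), below 0 on all 4 arrays. On all 5 probes replicate 1 had the ratio nearest to or above 0.

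The levels show which liver this was. For A_55_P2114993 the log2 intensity was 12.94, 12.97, 12.64 and 12.34 in the fasted livers, a narrow range. In the refed livers it was 12.5 on replicate 1 and 14.52, 14.93 and 15.31 on the others. The refed liver of replicate 1 therefore lay among the fasted livers, and the other 3 refed livers lay above all fasted ones. The same held for A_55_P2008907, where that liver was at 11.76 against 12.86 to 13.15 in the other refed livers and 11.45 to 12.04 in the fasted livers. Without replicate 1 the mean of the brightest probe was -2.08, and it then met both limits.

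**Figure D2:**
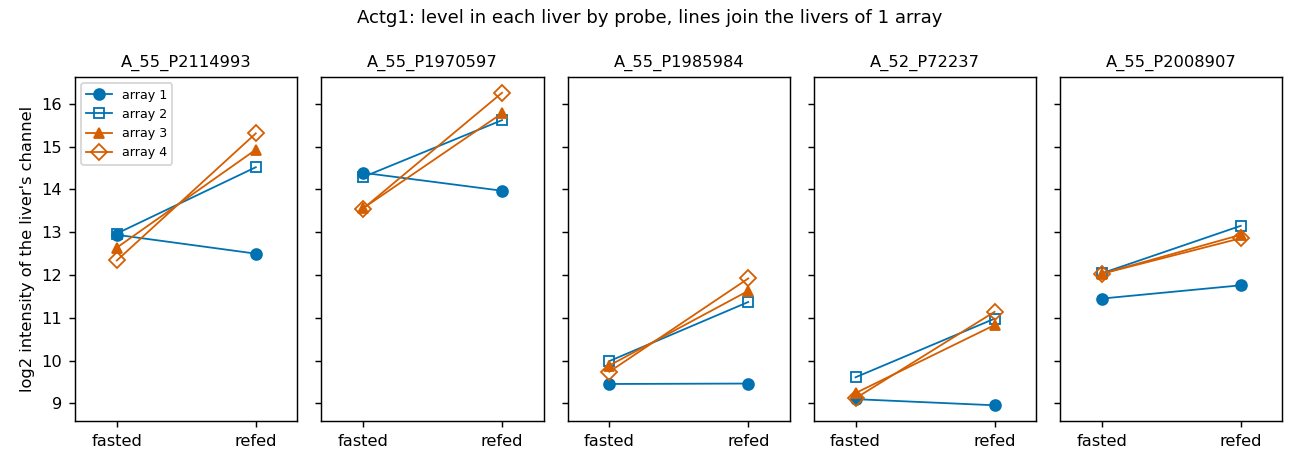
Log2 intensity (y axis) of the 4 fasted and 4 refed livers for each of the 5 Actg1 probes (panels), with lines joining the livers that shared an array. The refed liver of array 1 lies near the fasted livers on every probe, at 12.5 for A_55_P2114993 where the other refed livers are at 14.52 to 15.31.

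Probes of Actg1 share sequence, so they are not independent readings. A_55_P1985984 (chr11:120208361-120208420) and A_52_P72237 (chr11:120208371-120208430) overlap by 50 bases and differ at 4 of them. These are A9G, G23A, G25T and C40T, counted from the 5′ end of A_55_P1985984, with its base first. The overlap is printed with the differing bases in capitals, since both probes are listed for the same stretch of the gene.
A_55_P1985984: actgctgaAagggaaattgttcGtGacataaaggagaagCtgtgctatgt
A_52_P72237: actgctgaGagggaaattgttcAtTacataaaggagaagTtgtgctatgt
The third probe of this region, A_55_P2008907 (chr11:120208409-120208468), shares its last 22 bases with the start of A_52_P72237 without a mismatch. The last 22 bases are in capitals.
A_55_P2008907: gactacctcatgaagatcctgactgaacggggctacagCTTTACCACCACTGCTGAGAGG
The pair with 4 mismatches moved alike on the 4 arrays, while the pair with identical shared bases did not. Each pair was a reading of the same 4 livers per condition.

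On the array, 2 probes with no gene name also resemble Actg1 probes. One shares 58 bases with the brightest Actg1 probe, with 3 mismatches, and gave 0.27, -1.66, -1.77 and -2.44. The other shares 58 bases with A_55_P2114993, with 8 mismatches, and gave 0.12, -1.88, -2.00 and -2.58. Replicate 1 was the only array above 0 on both.

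Vcl, which encodes vinculin, the link between adhesion sites and actin filaments, had 1 probe kept. It gave -0.45, 0.11, -0.30 and -0.33, a mean of -0.24 ± 0.24 (SD, n = 4), with 3 of 4 arrays below 0, and was not called. The other Vcl probe was above background on only 2 fasted and 2 refed channels and gave no usable ratio.

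Cfl1, which encodes cofilin, the factor that severs actin filaments, had 3 probes and none was called. Its brightest gave -0.68, -0.31, 0.05 and 0.00, a mean of -0.23 ± 0.33, and of -0.09 without replicate 1. A_55_P1974788 gave -0.90, -0.47, 0.29 and 0.21, a mean of -0.22 ± 0.57. On both, the arrays with the fasted liver in Cy5 were below 0 and those with it in Cy3 were at or above 0. The third probe had a mean of -0.12 ± 0.11, and its values lay closer together.

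The 5 tubulin genes were called lower by every one of their 7 probes. Tuba1b, an alpha tubulin of most dividing and non-dividing cells, gave -1.13, -0.90, -1.28 and -1.41 on A_55_P2116496, a mean of -1.18 ± 0.22 (SD, n = 4) or 2.27-fold. Its log2 intensity was 10.54, 11.25, 10.78 and 10.98 in fasted and 11.67, 12.15, 12.05 and 12.38 in refed livers. The groups did not overlap. A_55_P2154132 of the same gene gave -0.54, -0.85, -0.58 and -0.42, a mean of -0.60 ± 0.18. All of its ratios were closer to 0 than the smallest of the first probe, so the probes disagreed on size and agreed on direction. No overlap of 20 or more bases was found between them. The first is listed at chr15:98762319-98762378 and the second at chr15:98761923-98761982.

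Tuba1c, another alpha tubulin, had the largest mean change among the called probes. A_55_P2108837 gave -1.12, -1.11, -1.46 and -1.86, a mean of -1.39 ± 0.35 or 2.62-fold. Its log2 intensity was 12.86, 13.45, 12.65 and 12.57 in fasted and 13.98, 14.56, 14.11 and 14.43 in refed livers, again without overlap. The other probe, A_55_P2064547, gave -0.92, -0.82, -1.64 and -2.10, a mean of -1.37 ± 0.61. These 2 probes share 49 bases with 1 difference, A43G, counted from the 5′ end of A_55_P2064547. They are close to being the same reading, and the 30 bases around the difference, in capitals, show it.
Tuba1c A_55_P2064547, bases 20 to 49: aaactgtcaataaaggtgtttccAttgtaa
Tuba1c A_55_P2108837, the same stretch: aaactgtcaataaaggtgtttccGttgtaa
Without replicate 3, which carried the acinar transcripts, the mean of the brighter probe was -1.28 and the call was lost.

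Tuba4a, an alpha tubulin also abundant in muscle and brain, gave the most even ratios of the 20 probes, -1.06, -0.84, -0.89 and -0.95, a mean of -0.93 ± 0.09 (SD, n = 4) or 1.91-fold. Its log2 intensity was 12.17, 12.97, 12.76 and 12.96 in fasted and 13.23, 13.81, 13.64 and 13.91 in refed livers. The lowest refed liver was above the highest fasted one. The probe is listed at chr1:75212307-75212366.
Tuba4a A_52_P676271: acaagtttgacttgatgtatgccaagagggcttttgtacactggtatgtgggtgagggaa

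The beta tubulins were less even. Tubb2a gave -0.65, -0.97, -0.49 and -0.81, a mean of -0.73 ± 0.20 or 1.66-fold. Its levels overlapped, because both livers of replicate 1 were dim, at 11.28 fasted and 11.94 refed, while the other fasted livers were at 12.23 to 12.6 and the other refed livers at 12.96 to 13.41. Tubb5, the beta tubulin expressed in most cells, gave -0.93, -1.59, -0.37 and -0.40, a mean of -0.82 ± 0.57. It was below 0 on all 4 arrays, with means of -1.26 where the fasted liver was in Cy5 and -0.39 where it was in Cy3. Its call was lost without any single replicate, with means between -0.97 and -0.57.

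**Figure D3:**
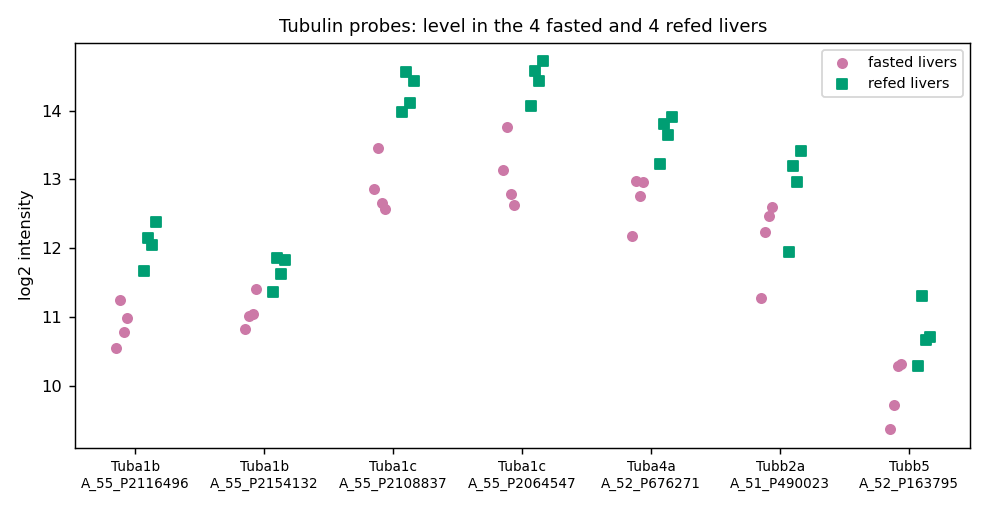
Log2 intensity (y axis) in the 4 fasted livers (pink circles) and 4 refed livers (green squares) for the 7 tubulin probes (x axis), for comparison within each probe and not between probes. The groups are apart for Tuba1b A_55_P2116496, for A_55_P2108837 and A_55_P2064547 of Tuba1c and for Tuba4a, and they overlap for the remaining 3.

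The dye orientation was not part of the selection and could be tested. A dye effect is the part of the ratio that follows Cy5 over Cy3 whichever liver it labels. By limma, with adjusted p below 0.10, 6 of the 20 kept probes had one, against 14.8% of all kept probes. It was brighter in Cy5 for 4 of them. These were Actg1's brightest probe at 1.01 on the log2 scale (limma adjusted p = 0.0822), Tuba1c A_55_P2064547 at 0.50 (limma adjusted p = 0.0416), Srf's brighter probe at 0.24 (limma adjusted p = 0.0644) and the Actb-named probe on X at 0.24 (limma adjusted p = 0.0872). It was brighter in Cy3 for Cfl1 A_55_P1974788, at -0.47 (limma adjusted p = 0.0447), and for Tubb5, at -0.44 (limma adjusted p = 0.0747). The 4 arrays split 2 and 2 by orientation, so for a single probe a dye effect and a difference between pairs of livers cannot be told apart. With both orientations present in equal number, a dye effect cancels in the mean and widens the SD. Leaving out an array left 1 array in an orientation and 1 residual degree of freedom per probe, with that array assumed to vary like the others. The count was then 4 without replicate 1 (8.81% of all kept probes), 10 without replicate 2 (11.8%), 1 without replicate 3 (2.04%) and 0 without replicate 4 (1.08%).

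**Figure D4:**
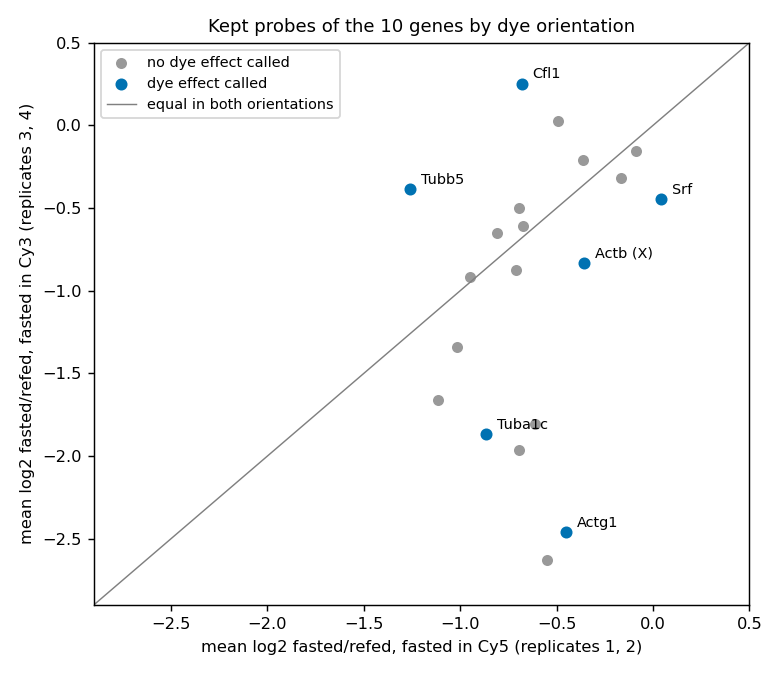
Mean log2 ratio of fasted over refed liver on replicates 1 and 2 (x axis, fasted in Cy5) against replicates 3 and 4 (y axis, fasted in Cy3) for the 20 kept probes, with blue for the 6 with a dye effect and the grey line for equal means. Actg1's brightest probe is at -0.45 against -2.46 and Tubb5 at -1.26 against -0.39, on opposite sides of the line, and Tuba4a at -0.95 against -0.92 lies on it.

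Genes around these 10 were described from pathway lists. Of 149 listed genes kept, 4 were called lower and 4 higher, against 2.13% and 1.82% of all genes. Their median ratio was -0.03. Under median centring in place of loess the split was 9 lower and 2 higher. When spots of high local background were retained, Tubb2c was the 1 listed gene called lower and 0 were called higher.

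Among 10 other tubulins kept, 2 were called lower and 8 had a mean below 0, beside 7921 of all 16085 genes, with a list median of -0.34. Tubb2c, the beta tubulin now named Tubb4b, gave -1.25, -0.92, -0.84 and -1.13, a mean of -1.03 ± 0.19 (SD, n = 4; limma adjusted p = 0.00553). All 4 arrays lay close together. Tubd1, the delta tubulin of centrioles, had a mean of -0.63 ± 0.26 (limma adjusted p = 0.0314), and lost its call without replicate 2, 3 or 4, where its mean lay between -0.63 and -0.53, and when spots of high local background were retained, at -0.25. With the members, 15 tubulin genes were kept, of which 7 were called lower and 13 had a mean below 0, counts that include the 5 genes selected on this comparison. Tube1 and Tubb2b were above 0, at 0.05 and 0.07.

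The chaperones and cofactors that fold actin and tubulin had 21 genes kept and 0 called by limma, and 19 had a mean below 0, beside the same 7921 of 16085. By rebuilt SAM 0 were called too. At an unadjusted p under 0.05 there were 7, all lower, against 11.7% of all genes lower at that limit. Of these, 5 kept an adjusted p below 0.10 in limma with changes below 1.5-fold, against 6.26% of all genes lower by adjusted p alone. Their largest was Tbcb, a tubulin folding cofactor, at -0.57 ± 0.10 (limma adjusted p = 0.0155). The list median was -0.14. Of 18 genes for microtubule binding and tubulin modification, Kif1b, a motor protein, was called higher at 0.62 ± 0.15 (limma adjusted p = 0.0161), but its mean was 0.09 when all kept probes of the gene were averaged, and 0.57 without replicate 2, where the call was lost.

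Actin's own binding partners mostly lay near 0. Of 33 genes for actin assembly and turnover, 0 were called by limma or SAM, 0 reached an unadjusted p under 0.05, and the median was 0.01. Of 21 crosslinkers, tropomyosins and myosin II genes, 0 were called by either, and 3 reached that unadjusted p, 2 lower and 1 higher. Of the 4 other actin isoforms, Acta2 of smooth muscle was kept, at -0.06 ± 0.43, on which the arrays disagreed in sign. Of 6 intermediate filament and lamin genes, 0 were called by either, and 2 reached that unadjusted p, 1 lower and 1 higher.

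Adhesion partners of vinculin had 2 of 17 called lower. Tes, which encodes testin of focal adhesions, gave -0.35, -1.40, -1.53 and -1.26, a mean of -1.13 ± 0.54 (SD, n = 4; limma adjusted p = 0.0292). Zyx, which encodes zyxin, had a mean of -0.59 ± 0.30 (limma adjusted p = 0.0485), just past the fold limit. Tes lost its call without replicate 2 (-1.04) or 3 (-1.002), and Zyx without replicate 1, 3 or 4 (-0.63 to -0.45). Both lost it when spots of high local background were retained, at -0.46 for Tes and -0.41 for Zyx. The size for Tes depended on the background step, with -2.38 from Agilent's processed signals and -1.95 after plain subtraction.

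The called partners and early targets of SRF were higher in fasted livers. Mkl2, a myocardin-related cofactor of SRF, gave 0.44, 0.77, 0.74 and 0.70, a mean of 0.66 ± 0.15 (limma adjusted p = 0.0142). Its mean was 0.54 under median centring and 0.37 when spots of high local background were retained, and the call was lost in both. Of 7 immediate early SRF targets kept, 2 were called higher in fasted livers. Egr1, an early response transcription factor, gave 1.39, 2.32, 1.86 and 2.72, a mean of 2.07 ± 0.58 (limma adjusted p = 0.00752). Nr4a1, an orphan nuclear receptor, had a mean of 1.22 ± 0.77 (limma adjusted p = 0.0579), and of 1.15 without replicate 3, where it was not called. When spots of high local background were retained, the means were 1.03 for Egr1 and 0.38 for Nr4a1, and neither was called. In the fit reported, both were above 0 on all 4 arrays, where every called probe of the actin and tubulin genes was below 0 on at least 3.

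**Figure D5:**
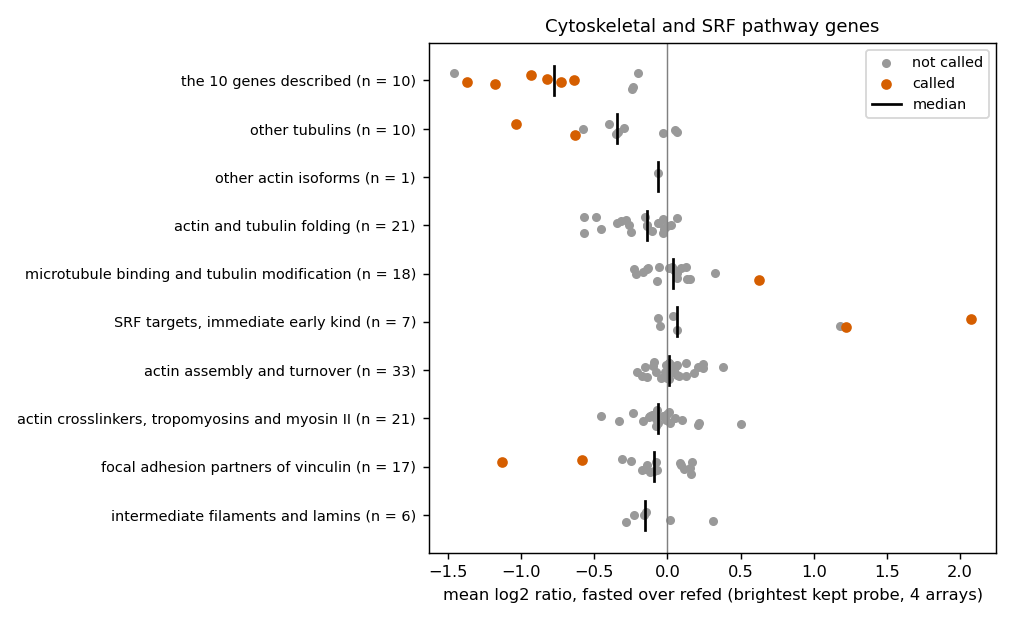
Mean log2 ratio of fasted over refed liver (x axis) for each kept gene by its brightest probe, grouped by list (y axis), with orange for called genes, grey for the rest and a black line for the list median. The 10 genes described have a median of -0.78, the other tubulins -0.34 and the other lists plotted between -0.15 and 0.06, while Egr1 and Nr4a1 stand at 2.07 and 1.22.

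Genes whose 4 ratios lay nearest to those of a member were found by Euclidean distance over the brightest kept probes. For Srf they were Sys1 (distance 0.06), Plekha2, Sfrs2, Gm7075 and Stx7 (0.10). For Actb they were Irgm1 (0.09), Tardbp, Lamp3, Poli and Gm15455 (0.21), and each had a mean between -0.65 and -0.60. The list for Actg1 was added after its values were seen. It held 5 probes with no gene symbol on the array, at distances of 0.26 to 0.68, and all 5 were above 0 on replicate 1 and at -1.27 or lower on the other arrays. They included both of the unnamed probes that share 58 bases with Actg1 probes.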

How the data were processed

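The authors deposited scanner files with raw intensity per spot and channel, local background intensity and quality flags (other columns) from Agilent Feature Extraction, and a table of log2 ratios which the authors normalized by loess in limma. All columns belonged to samples of the series. The study labelled 200 ng of RNA per liver, and all 4 arrays shared a slide and a scan.

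Median signals of 44397 spots per array were used. Spots whose local background exceeded 3 times the array's median were left out (54 gene spots in all), and background was corrected by normexp with an offset of 50. Control and outlier-flagged spots (197 to 322 per array) were left out, loess was run within arrays and spots of a probe were averaged. No spot was saturated. Probes were kept if well above background on all 4 arrays in at least 1 condition and with a ratio on all 4 arrays. The 4 ratios were fitted with lmFit and eBayes in limma 3.58.1 (R 4.3.3), two-sided, with Benjamini-Hochberg adjustment over the 19721 kept probes, and called at an adjusted p under 0.10 and 1.5-fold. A dye term was tested in a second model. A gene counts by its brightest kept probe. Levels per liver are log2 intensity after loess and Aquantile normalization. The scripts were tested on simulated data. The members and gene lists were chosen with earlier results of these data known. Genes were named by rule: all members, called genes of each pathway list, and the 5 nearest to Srf and Actb. Tbcb, Acta2, Tube1 and Tubb2b were named beside them after their values were seen. Cell type markers were named outside this rule. Probe positions are those of the file (mm9); promoters are RefSeq's on GRCm38.p6 and were not mixed with them. The position of a probe within its transcript is not given in the sources used here. A few items are not reported here.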

Additional observations from a re-analysis of the deposited data

Results flagged for a closer look

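Of 38 ratios scanned over the 4 arrays, 2 had 1 array far from the other 3, and chance flags about 1 in 20 such sets. The pancreatic acinar list had mean log2 ratios of 0.04, -0.06, -3.93 and 0.03 on replicates 1 to 4, with a gap of 0.974 of its range. Its summed intensity ran from 411 to 17200 in refed and from 436 to 999 in fasted livers. The endothelial list had means of 0.20, 0.20, -0.10 and 0.22, with a gap of 0.938 of its range. There, Lyve1 was at -1.26 on replicate 3 and the other 5 genes lay between -0.01 and 0.25. No member probe passed this limit. Without replicate 3, 4 of the 10 genes were called lower, and Tuba1c and Tubb5 lost their calls.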

How the results depend on the processing

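The count of member genes called lower was 6. It was 2 with a 2-fold limit and 3 with no spot left out for local background, and leaving out 1 replicate at a time gave 4 to 6. No member was called higher under any alternative run. Srf's mean turned to 0.0092 with no spot left out. Actg1 gained a call with a dye term, in rebuilt SAM, with median centring (-1.62), with all its probes averaged (-1.28) and without replicate 1. List genes called lower numbered 4, and 2 with a 2-fold limit, 9 with median centring, 11 with no fold limit, 1 with no spot left out and 1 to 4 without 1 replicate. Those called higher numbered 4, and 2 with a 2-fold limit or median centring, 0 with no spot left out and 3 to 4 without 1 replicate. Member probes with a dye effect numbered 6, 3 with no spot left out and 0 to 10 without 1 replicate. The cause of these shifts was not tested. Each ratio is taken within an array, so the fit is already over pairs of livers and a block would add nothing. The second Vcl probe was too dim to be used, and 4 arrays limited precision.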
